A study of Mus musculus with 9 samples.

Results

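The genes that gate the passage from G1 into S phase were followed in color-coded clones of a mouse acute myeloid leukemia model. The set holds 10 of the 55401 genes listed in each table and was chosen by gene name: the D-type cyclins *Ccnd1*, *Ccnd2* and *Ccnd3*, their kinases *Cdk4* and *Cdk6*, the inhibitors *Cdkn1b*, *Cdkn1c*, *Cdkn2c* and *Cdkn2d*, and the pocket protein gene *Rb1*. All 10 were found once in every table and all 10 passed the filter on low values in each comparison.

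In G1, D-type cyclins bind Cdk4 or Cdk6, and the active kinases phosphorylate the retinoblastoma protein, which then releases E2F factors to switch on genes for DNA synthesis. Inhibitors of the INK4 family, here *Cdkn2c* and *Cdkn2d*, bind Cdk4 and Cdk6 themselves, whereas the Cip/Kip inhibitors *Cdkn1b* (p27) and *Cdkn1c* (p57) bind cyclin-kinase complexes. In blood formation, p27 and p57 are known for holding hematopoietic stem cells in quiescence, and Cdk6 is prominent among the kinases of blood progenitors.

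H9M cells are lineage-negative bone marrow cells of C57BL/6-Ly5.1 mice, transformed by a gammaretroviral vector that expresses *Meis1* and *Hoxa9* cDNAs. Each clone carries FGB-D lentiviral vectors, which give it a fluorescent color code and co-express a truncated EGFR. A mix of such clones with helper bone marrow cells was given to lethally irradiated C57Bl6/J mice, whose ages are not given in the sources used here. Spleen cells within the CD45.1+, EGFRt-bright, cKit+ and CD11b dim or negative gate were sorted by color code, and RNA was sequenced in 9 libraries, 3 per group. Mouse #15, which was sacrificed before leukemia, gave the pre-malignant group, with 1 library each of clone 33BC-D, clone 38BC-D and clone 43BC-D. The de novo expanded group held clone 38BC-D from mouse #13, 43BC-D from mouse #14 and 33BC-D from mouse #17 at the leukemic endpoint. The stably expanded group was a single clone, 34BC-D, from mice #13, #14 and #17. Hence the difference between mouse #15 and the endpoint mice cannot be told apart from the difference between pre-malignant and leukemic cells, and p-values of the stably expanded group describe 1 clone in 3 mice. Clone 34BC-D has no pre-malignant library. A difference of the stably expanded group from either other group therefore cannot be told apart from a difference between clones. The labels tie a column of the tables to a group only. Libraries are therefore numbered 1 to 3 within a group, and a number names neither a clone nor a mouse.

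The libraries held between 10379739 and 15551196 reads on genes, and a count of 0 allows up to 3 reads. Genes with a read numbered 27896 to 30548 in pre-malignant, 23537 to 27989 in de novo expanded and 21618 to 27067 in stably expanded libraries, and reads on olfactory and vomeronasal receptor genes made up 0.0083% to 0.0186%, 0.0038% to 0.0121% and 0.0022% to 0.0081%. The part of these differences in the results was not tested. *Ptprc*, which encodes CD45, ranged between 310 and 385 CPM (reads scaled to the same total of reads on genes) and *Kit* between 142 and 287 CPM. The summed T cell markers reached at most 4.93 CPM and the platelet markers 3.49 CPM, with *Ppbp* and *Gp1bb* at 0 in every library. The macrophage markers *C1qa*, *C1qb*, *C1qc*, *Marco* and *Cd5l* each stayed under 1 CPM in all 9 libraries, while *Adgre1*, *Csf1r* and *Vcam1* were read in all of them. De novo expanded library 3 stood apart from the other libraries of its group. Without it, the number of genes called between de novo expanded and pre-malignant clones went from 0 of 14195 to 214 of 14224, and between stably and de novo expanded clones from 1 of 13758 to 508 of 13756. To be called, a gene needed a limma p-value, adjusted by Benjamini-Hochberg, under 0.05 and at least a 2-fold difference. Member values that it moved most are given with and without it. A fit without a library whose own values oppose a difference favors that difference. The p-values of such fits are given as a description only.

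Regulatory sequence was read for 6 members from RefSeq promoters of the GRCm38.p6 build, which span 250 bases before to 50 bases after a transcription start. *Cdk4*, *Cdkn1b* and *Cdkn2d* are shown because they were among the members that differed from the pre-malignant libraries without overlap in a comparison given below. The sequences run 5′ to 3′ on the strand of the gene: *Cdk4* at chr10:127063285-127063584 (plus strand), *Cdkn1b* at chr6:134920151-134920450 (plus strand) and *Cdkn2d* at chr9:21291160-21291459 (minus strand). Capitals mark matches, on either strand, to the E-box CACGTG, the GC box GGGCGG and the CCAAT box CCAAT, and in *Cdk4* GC boxes 2 and 3 overlap.
Cdk4: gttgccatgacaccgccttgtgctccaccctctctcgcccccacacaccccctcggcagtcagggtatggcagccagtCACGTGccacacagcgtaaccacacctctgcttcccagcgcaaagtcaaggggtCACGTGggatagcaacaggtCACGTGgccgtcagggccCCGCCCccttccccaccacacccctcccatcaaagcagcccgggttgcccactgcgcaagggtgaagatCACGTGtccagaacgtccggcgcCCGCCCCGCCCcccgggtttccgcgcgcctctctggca
Cdkn1b: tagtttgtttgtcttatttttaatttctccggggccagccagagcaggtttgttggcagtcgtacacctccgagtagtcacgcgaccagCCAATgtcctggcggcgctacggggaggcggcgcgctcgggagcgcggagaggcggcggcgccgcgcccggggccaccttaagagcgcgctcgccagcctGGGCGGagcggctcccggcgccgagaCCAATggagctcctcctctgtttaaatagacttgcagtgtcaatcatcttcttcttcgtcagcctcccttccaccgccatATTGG
Cdkn2d: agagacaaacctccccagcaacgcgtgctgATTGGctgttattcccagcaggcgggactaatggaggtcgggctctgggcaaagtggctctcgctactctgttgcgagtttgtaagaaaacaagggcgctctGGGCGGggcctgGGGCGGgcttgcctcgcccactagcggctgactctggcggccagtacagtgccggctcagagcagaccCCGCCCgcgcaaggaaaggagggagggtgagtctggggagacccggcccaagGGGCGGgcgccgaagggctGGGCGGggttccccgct
The *Cdk4* window held 4 E-boxes, at -172, -118, -98 and -11 from the start, the letters that Myc and related factors bind. A CACGTG stood in 7.15% of the 32851 promoters of this length, a GC box in 35.7% and a CCAAT box in 37.4%. *Cdkn1b* held 1 GC box and 3 CCAAT boxes, and *Cdkn2d* 5 GC boxes and 1 CCAAT box. The E2F letters TTTCCCGC, TTTCGCGC, TTTGCCGC and TTTGGCGC (2.26% of promoters) and the FOXO letters TGTTTAC (3.65%) were found in none of these 3 windows. *Ccnd3*, which also differed without overlap but has more than 1 start and is not printed, held a FOXO match at -243 from its first start. These matches describe letters in the windows and no binding was measured.

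Of the 10 members, 1 was called in 1 comparison. *Cdkn1c* was 5.82-fold higher in the stably expanded clone than in pre-malignant clones, where 2.75% of all genes tested were called. *Ccnd1* and *Ccnd2* had the widest spread, 185-fold and 39.0-fold between the highest and the lowest library, while *Cdk4* and *Cdk6* stayed within 1.47-fold and 1.38-fold and *Ccnd3* between 116 and 174 CPM. *Cdkn1b* was lower in clone 34BC-D than in the pre-malignant clones (log2 -0.48), with a limma adjusted p-value of 0.0258 but a difference under 2-fold. The plot of CPM by library shows each value.

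**Figure D1:**
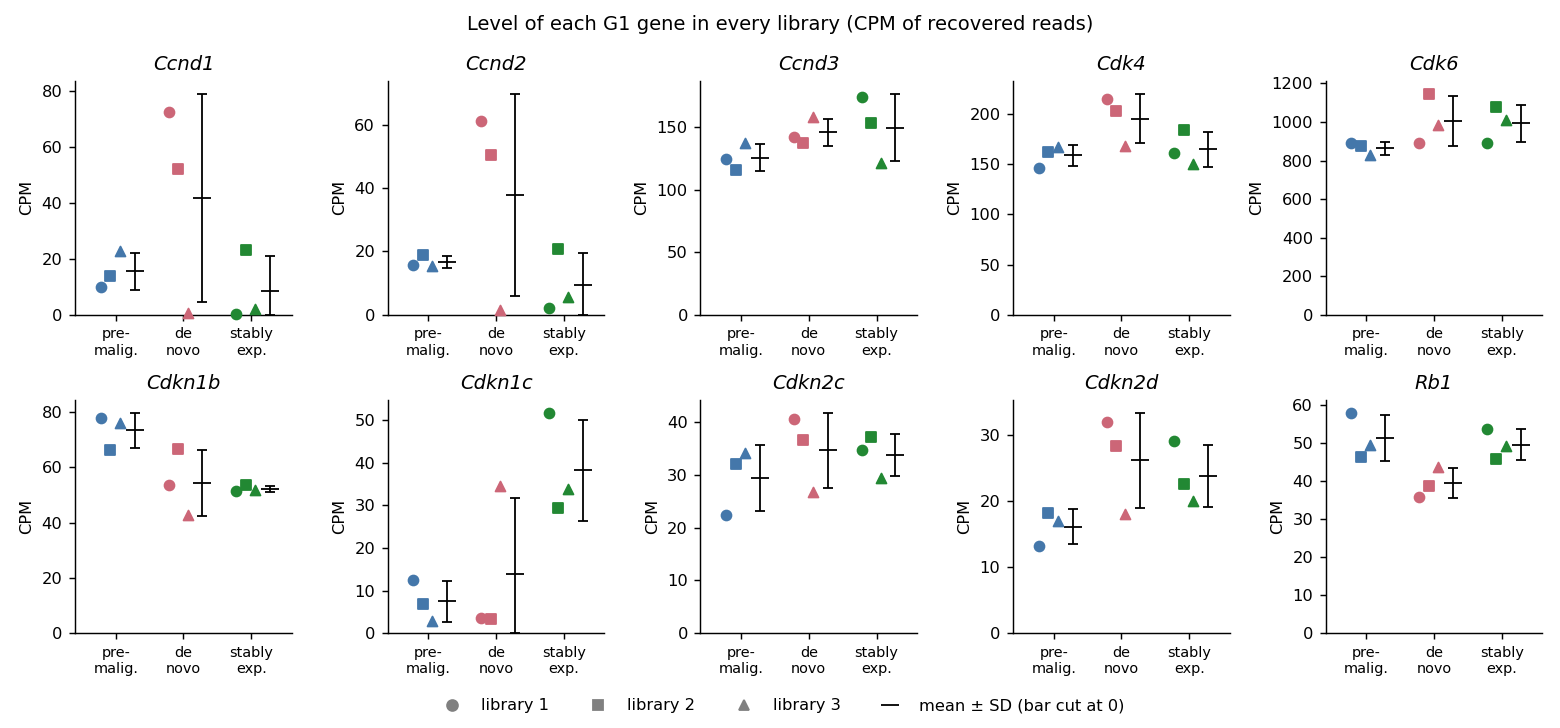
CPM (y axis from 0) of the 10 genes in every library, with 1 panel per gene, colors for the groups, a marker shape for each library number, and bars for the mean ± SD of 3 libraries. De novo expanded library 3 (triangle) lies at 0.52 CPM for *Ccnd1*, 1.57 CPM for *Ccnd2* and 34.5 CPM for *Cdkn1c*, away from the other libraries of its group.

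Among the cyclins, *Ccnd1* (chr7:144929931-144939925), the D-type cyclin induced by growth factor signals in many tissues, gave 10.1, 13.8 and 22.9 CPM in pre-malignant libraries 1 to 3. The de novo expanded libraries gave 72.6, 52.0 and 0.52 CPM, and the stably expanded libraries 0.39, 23.0 and 2.12 CPM. Libraries 1 and 2 of the de novo expanded group were the highest of all 9, whereas library 3, with 8 reads, and stably expanded library 1, with 6 reads, were the lowest. *Ccnd2* (chr6:127125162-127152193), a D-type cyclin made in many blood cells, gave 15.9, 18.96 and 15.3 CPM in pre-malignant, 61.2, 50.5 and 1.57 CPM in de novo expanded and 2.28, 20.7 and 5.68 CPM in stably expanded libraries. The same 3 libraries, de novo expanded library 3 and stably expanded libraries 1 and 3, held the 3 lowest values of *Ccnd1* and of *Ccnd2*. As CPM, stably expanded library 2 lay above the highest pre-malignant library for each gene. For *Ccnd1* the 2 were nearly equal, at 23.02 against 22.9 CPM and 336 against 339 reads. *Ccnd3* (chr17:47505051-47599691), a D-type cyclin with known roles in lymphoid and erythroid maturation, gave 124, 116 and 137 CPM in pre-malignant, 142, 137 and 158 CPM in de novo expanded and 174, 154 and 121 CPM in stably expanded libraries, so that its groups lay close together.

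No cyclin was called with all libraries and the filter on low values. With no filter *Ccnd1* was called for stably expanded over pre-malignant (log2 -2.37, limma adjusted p = 0.0464), where 525 of 40665 genes were called. The log2 fold change of *Ccnd1* was -0.16 ± 1.66 (standard error, limma) for de novo expanded over pre-malignant, -2.37 ± 1.03 for stably expanded over pre-malignant and -2.19 ± 2.04 for stably over de novo expanded, with limma adjusted p-values of 0.984, 0.181 and 0.907. edgeR and DESeq2, fitted to recovered reads, each gave 1.42 in place of -0.16. The arithmetic mean was 585 ± 521 normalized counts (SD, n = 3) in de novo expanded and 218 ± 91.8 in pre-malignant libraries. For *Ccnd2* the log2 fold changes were 0.06 ± 1.24, -1.34 ± 0.58 and -1.38 ± 1.42, with limma adjusted p-values of 0.992, 0.175 and 0.911, and edgeR and DESeq2 each gave 1.18 in place of 0.06. *Ccnd3* differed by at most 0.24 ± 0.13 on the log2 scale, for stably expanded over pre-malignant, with a limma adjusted p-value of 0.275.

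Single libraries decided the calls of *Ccnd1* and *Ccnd2*. Without de novo expanded library 3, *Ccnd1* was called 2.06 ± 0.29 and *Ccnd2* 1.74 ± 0.16 higher (log2) in the de novo expanded group than before malignancy, with limma adjusted p-values of 0.00507 and 0.000552, where 1.5% of all genes tested were called. Without stably expanded library 2, *Ccnd1* was called at -3.86 ± 0.59 and *Ccnd2* at -2.16 ± 0.36 for stably expanded over pre-malignant, with limma adjusted p-values of 0.00638 and 0.00829, where 3.23% of all genes were called. Each of these fits rests on 2 libraries in 1 group. In each, the library left out was the one whose own *Ccnd1* and *Ccnd2* values opposed the difference, so these p-values are a description only. Between the leukemic groups without de novo expanded library 3, *Ccnd2* was called at -3.07 ± 0.69 (limma adjusted p = 0.0301), and *Ccnd1* reached -4.41 ± 1.22 (limma adjusted p = 0.0655), where 3.69% of all genes were called.

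**Figure D2:**
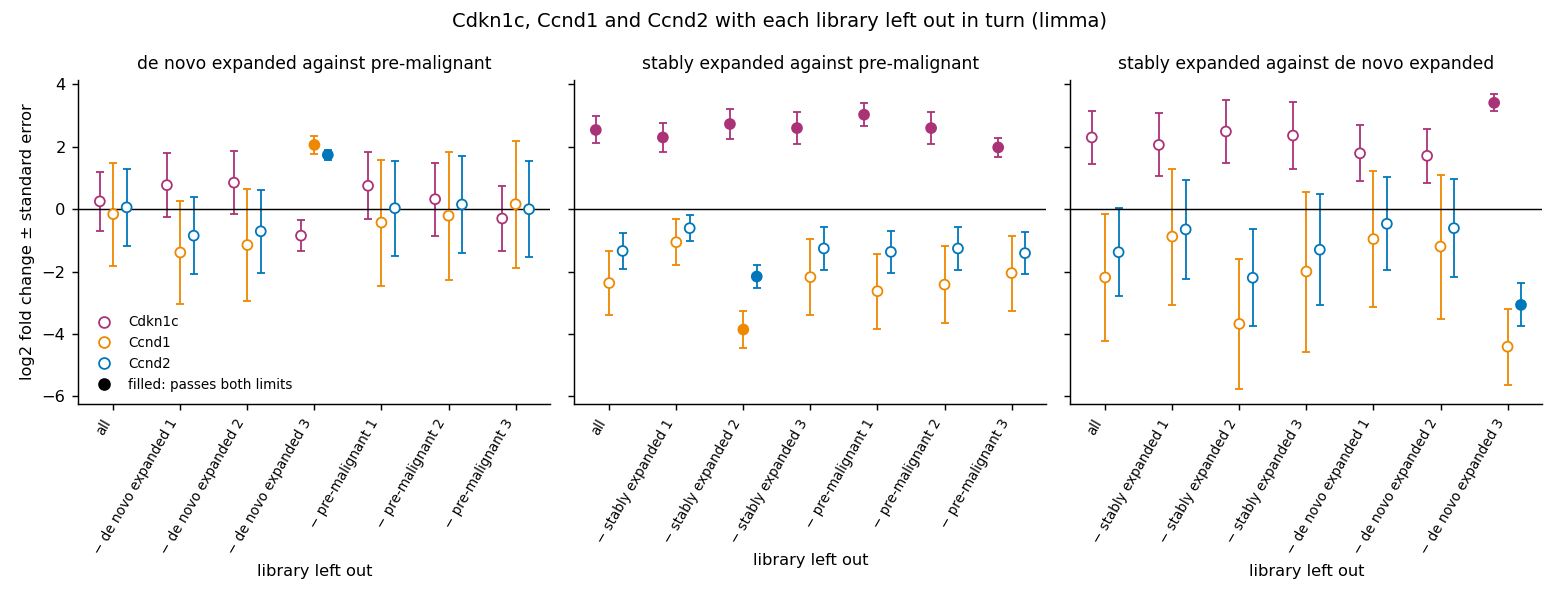
Log2 fold changes ± standard error (limma, y axis) of *Cdkn1c*, *Ccnd1* and *Ccnd2* in the 3 comparisons, with all 6 libraries and with each library left out in turn (x axis). Filled points pass both limits. *Cdkn1c* is filled throughout the middle panel, whereas *Ccnd1* and *Ccnd2* are filled there only without stably expanded library 2.

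Per exon length, which allows genes to be compared, *Ccnd3* was the most abundant D-type cyclin in each library. It made up between 70.7% and 78.7% of the summed cyclin D level (TPM, reads per exon base scaled to the same total) in pre-malignant libraries and between 71.2% and 98.4% in stably expanded libraries. In de novo expanded libraries 1 and 2 its share was 42.5% and 48.9%, and *Ccnd1* held 40.5% and 34.4%. In de novo expanded library 3, *Ccnd3* held 98.5%. The summed level was 41.9 and 42.1 TPM in de novo expanded libraries 1 and 2 and between 20.3 and 30.9 TPM in the other 7 libraries. The log2 ratio of *Ccnd2* over *Ccnd3* within a library was -2.91 ± 0.28 (SD, n = 3) in pre-malignant, -3.08 ± 3.04 in the de novo and -4.50 ± 1.66 in the stably expanded group, and it overlapped between groups (exact permutation tests, two-sided p = 1.0, 0.3 and 0.6, where 0.1 is the smallest p that 3 libraries against 3 can give).

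**Figure D3:**
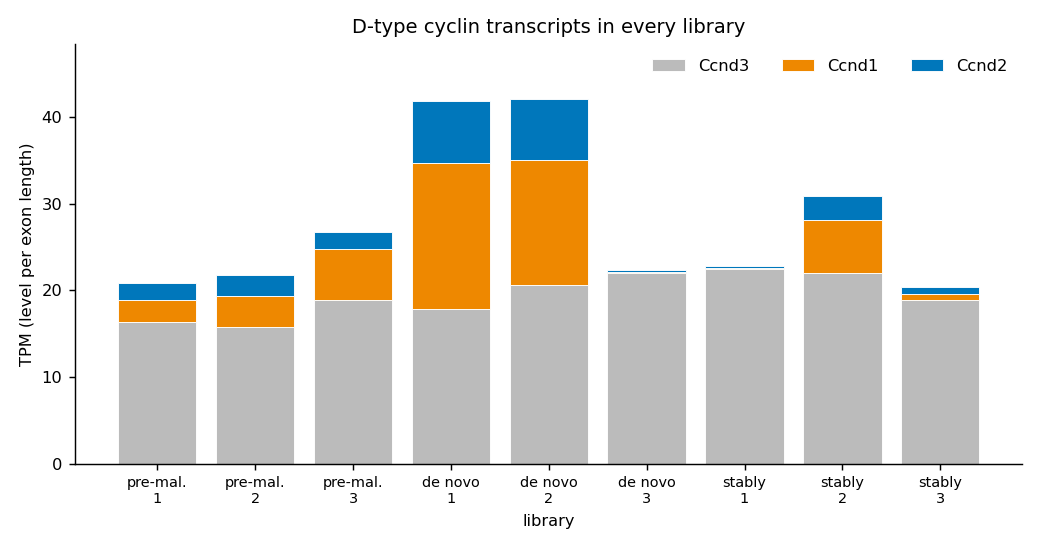
Levels of the 3 D-type cyclin genes per exon length (TPM, y axis) stacked for each of the 9 libraries (x axis). The *Ccnd3* segment stays between 15.8 and 22.5 TPM, and the *Ccnd1* segment reaches 16.9 and 14.5 TPM in de novo expanded libraries 1 and 2.

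The kinases were abundant and steady. *Cdk6* (chr5:3341485-3531008) gave 894, 873 and 828 CPM in pre-malignant, 890, 1144 and 983 CPM in de novo expanded and 890, 1077 and 1013 CPM in stably expanded libraries. *Cdk4* (chr10:127063534-127067920) gave 147, 162 and 168 CPM in pre-malignant, 215, 203 and 168 CPM in de novo expanded and 161, 184 and 150 CPM in stably expanded libraries. Per exon length the kinases were closer, at 83.4 TPM for *Cdk6* and 64.7 TPM for *Cdk4* on average over 9 libraries, and both lay above every other member.

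*Cdk4* was 1.24-fold higher in de novo expanded clones, against pre-malignant ones (log2 0.31 ± 0.11) and did not pass (limma adjusted p = 0.414). Its normalized counts did not overlap between these groups, although library 3 lay just above the highest pre-malignant library. Without de novo expanded library 3 the difference was 0.40 ± 0.10 with a limma adjusted p-value of 0.0476, below the fold limit. For stably expanded over pre-malignant, *Cdk4* was at 0.06 ± 0.10, a sign that turned under quantile normalization. *Cdk6* was at 0.23 ± 0.11 and 0.20 ± 0.09 in de novo and stably expanded over pre-malignant clones, with limma adjusted p-values of 0.479 and 0.213. The log2 ratio of *Cdk4* over *Cdk6* was -2.45 ± 0.15 in pre-malignant, -2.36 ± 0.28 in the de novo and -2.59 ± 0.15 in the stably expanded group and overlapped between groups in each comparison (exact permutation tests, p = 0.8, 0.4 and 0.4).

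Among the inhibitors, *Cdkn1c* (chr7:143458339-143461050), an imprinted gene expressed from the maternal copy, gave 12.5, 6.98 and 2.90 CPM in pre-malignant libraries. The de novo expanded libraries gave 3.67, 3.28 and 34.5 CPM, and the stably expanded libraries 51.8, 29.3 and 33.8 CPM. The 3 stably expanded libraries and de novo expanded library 3 formed the upper 4 of the 9, between 351 and 793 reads, and the other 5 held between 43 and 165 reads. For stably expanded over pre-malignant, *Cdkn1c* was at 522 ± 167 against 102 ± 66.6 normalized counts (SD, n = 3). Its log2 fold change was 2.54 ± 0.43 (standard error) with a limma adjusted p-value of 0.00877. It was the only member among 10 to be called there, where 2.75% of the 13968 genes tested were called. The call held with each library left out, with log2 fold changes between 1.98 and 3.03, and with edgeR (2.36, adjusted p = 0.0112) and DESeq2 (2.34, adjusted p = 0.00332) on recovered reads. In 1 fit of all 9 libraries, which shares the spread of the de novo expanded group, the same 2.54 had a standard error of 0.83. Its limma adjusted p-value was 0.154, and the call was lost, in a fit that called 6 of 13960 genes for this comparison.

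For de novo expanded over pre-malignant, *Cdkn1c* was at 0.25 ± 0.94 with all libraries and at -0.85 ± 0.51 without library 3, with limma adjusted p-values of 0.942 and 0.357, and edgeR and DESeq2 each gave 0.89 with all libraries. Between the leukemic groups it was at 2.30 ± 0.85 (limma adjusted p = 0.891) with all libraries and was called at 3.41 ± 0.27 (limma adjusted p = 0.000512) without de novo expanded library 3. The *Cdkn1c* value of that library opposed this difference, so the p-value without it is a description only. On the opposite strand, *Gm44732* shares 625 of the 2039 exon bases of *Cdkn1c* and had at most 20 reads in a library, and whether counting used strand is not given in the sources used here.

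The summed level of the maturing neutrophil markers was, like *Cdkn1c*, highest in the 3 stably expanded libraries and in de novo expanded library 3. *Ngp* gave much of it, 2605 CPM in stably expanded library 1. Within the de novo expanded group, *Camp*, *Ngp*, *Lcn2* and *Mmp8* were highest in library 3. *Ltf* (6.53 CPM there, 7.59 CPM in library 1), *Cxcr2* (2.09 CPM there, 2.70 CPM in library 2), *Retnlg* and *Mmp9* were not. The summed level of the 8 genes lay between 129 and 181 CPM in pre-malignant libraries. It was 113, 147 and 504 CPM in de novo expanded and 3641, 1399 and 497 CPM in stably expanded libraries 1 to 3. Of the 6 tested for stably expanded over pre-malignant, 5 were called higher (*Ltf*, *Camp*, *Ngp*, *Lcn2* and *Cxcr2*). The sixth, *Mmp8*, was at -1.06 ± 0.62 (limma adjusted p = 0.312). In the macrophage list, 3 genes were tested and *Csf1r*, a receptor of the monocyte lineage, was called lower (log2 -1.72 ± 0.23, limma adjusted p = 0.00412). *Vcam1*, an adhesion molecule of that list, gave 100.3, 12.4 and 13.6 CPM in pre-malignant, 1.17, 6.75 and 167 CPM in de novo expanded and 141, 106 and 77.4 CPM in stably expanded libraries, and was not called. In the B cell list, 4 of 8 genes were called lower in stably expanded than in pre-malignant clones, and the summed level was between 94.3 and 111 CPM against 227 to 274 CPM, mostly *Ighm*. *Cd79b* of this list was at 0.99 ± 0.32 in the other direction (limma adjusted p = 0.0796). The erythroid markers summed to between 18.9 and 35.2 CPM in pre-malignant, 2.29 and 15.0 CPM in de novo expanded and 2.31 and 25.2 CPM in stably expanded libraries, with medians of -2.26 and -1.96 (log2) for the 6 genes tested against pre-malignant clones and none called. The part of these cells or programs in the *Cdkn1c* result was not tested, and in bulk libraries fewer cells of a type and less RNA per cell cannot be told apart.

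*Cdkn1b* (chr6:134920401-134925513), which encodes p27, gave 77.8, 66.1 and 76.1 CPM in pre-malignant, 53.4, 66.7 and 42.8 CPM in de novo expanded and 51.5, 53.5 and 51.8 CPM in stably expanded libraries. All stably expanded libraries lay below all pre-malignant libraries, and de novo expanded library 2 lay among the latter. For stably expanded over pre-malignant the level was 710 ± 4.67 against 994 ± 94.1 normalized counts, a log2 fold change of -0.48 ± 0.11 with a limma adjusted p-value of 0.0258, too small a change to be called. With no fold limit, 7.95% of all genes tested passed there, and 2 of the 10 members, *Cdkn1b* and *Cdkn1c*. Leaving out 1 library moved this limma adjusted p-value to between 0.0425 and 0.0954, and it was 0.143 in 1 fit of all 9 libraries. For de novo expanded over pre-malignant, *Cdkn1b* was at -0.44 ± 0.17 (limma adjusted p = 0.423), or -0.29 ± 0.14 without library 3, and between the leukemic groups it was at -0.03 ± 0.16. Both comparisons with pre-malignant clones share the same 3 pre-malignant libraries.

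The log2 ratio of *Cdkn1c* over *Cdkn1b* was -3.51 ± 1.05 (SD, n = 3) in pre-malignant and -0.49 ± 0.45 in stably expanded libraries, a difference of 3.02 with no overlap (exact permutation p = 0.1, the smallest possible, adjusted p = 0.4 over 12 ratio tests). Per exon length, *Cdkn1c* was at 4.31 ± 2.70 TPM and *Cdkn1b* at 19.1 ± 1.52 TPM in pre-malignant libraries, compared with 23.2 ± 5.36 and 14.4 ± 1.42 TPM in the stably expanded libraries. *Cdkn1c* was the higher of the pair in all 3 stably expanded libraries and in de novo expanded library 3, and the lower in the other 5.

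The INK4 genes changed less. *Cdkn2d* (chr9:21288410-21291407), which encodes p19Ink4d, gave 13.1, 18.2 and 17.0 CPM in pre-malignant, 32.0, 28.3 and 18.1 CPM in de novo expanded and 29.0, 22.5 and 19.9 CPM in stably expanded libraries. Its normalized counts were higher in every leukemic library than in every pre-malignant one, although as CPM de novo expanded library 3 lay below pre-malignant library 2. The log2 fold change was 0.69 ± 0.24 (limma adjusted p = 0.412) for de novo expanded and 0.56 ± 0.19 (limma adjusted p = 0.0954) for stably expanded over pre-malignant, and neither passed. Without de novo expanded library 3 the former became 0.92 ± 0.19 with a limma adjusted p-value of 0.0254, just below the fold limit. *Cdkn2c* (chr4:109660876-109667189), which encodes p18Ink4c, gave 22.3, 32.0 and 34.1 CPM in pre-malignant, 40.6, 36.5 and 26.7 CPM in de novo expanded and 34.7, 37.2 and 29.4 CPM in stably expanded libraries. Its groups overlapped in each comparison, and its log2 fold changes were 0.25 ± 0.22, 0.22 ± 0.17 and -0.01 ± 0.18, and leaving out de novo expanded library 3 moved the first to 0.42 ± 0.19, leaving out pre-malignant library 1 to 0.069. The log2 ratio of *Cdkn2d* over *Cdkn2c* was -0.86 ± 0.13 in pre-malignant, -0.42 ± 0.12 in the de novo and -0.51 ± 0.24 in the stably expanded group, without overlap between either leukemic group and the pre-malignant group (exact permutation p = 0.1 each, adjusted p = 0.4).

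*Rb1* (chr14:73183673-73325822), which encodes the retinoblastoma protein, gave 58.1, 46.4 and 49.7 CPM in pre-malignant, 35.97, 38.7 and 43.8 CPM in de novo expanded and 53.9, 45.9 and 49.2 CPM in stably expanded libraries. The de novo expanded libraries were the lowest 3 of the 9. *Rb1* was at -0.36 ± 0.14 for de novo expanded over pre-malignant (-0.45 ± 0.14 without library 3) and at 0.34 ± 0.14 for stably over de novo expanded, with limma adjusted p-values of 0.424 and 0.891, and at -0.04 ± 0.13 for stably expanded over pre-malignant. *Rcbtb2* and *Lpar6* share 488 and 408 of the 6015 exon bases of *Rb1* on the opposite strand. Likewise *LTO1* shares 1100 of the 4709 exon bases of *Ccnd1*, *Tspan31* shares 641 of the 3249 of *Cdk4*, and *Bysl* shares 361 of the 8775 of *Ccnd3*, so that without strand reads in these stretches cannot be assigned to 1 gene.

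**Figure D4:**
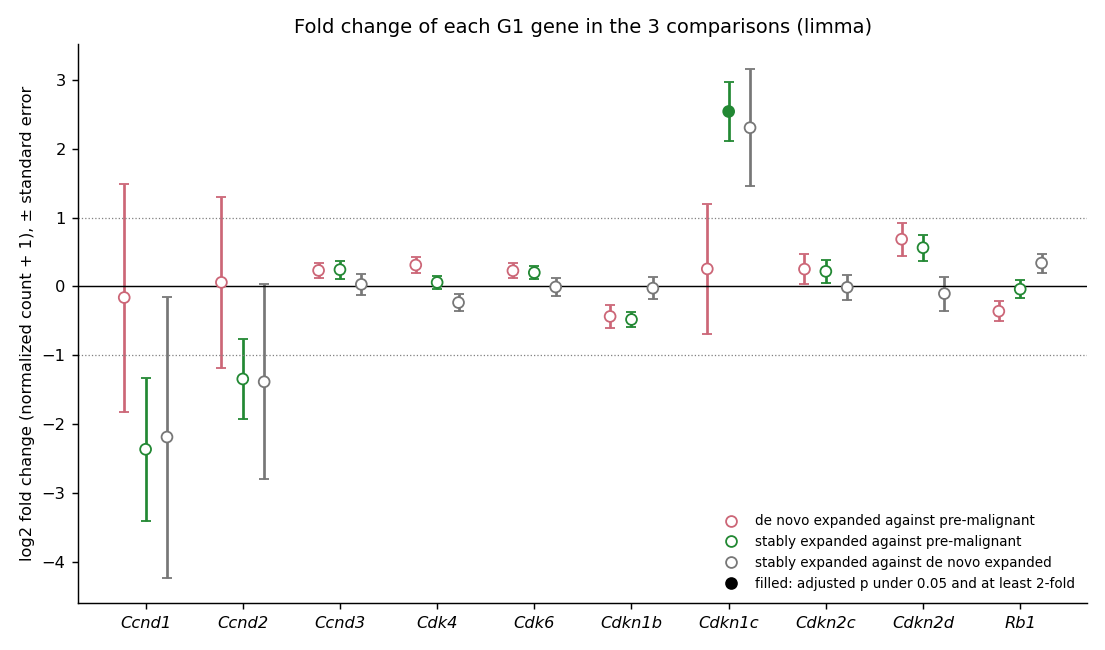
Log2 fold change ± standard error (limma on log2 of the normalized count plus 1, y axis) of the 10 genes (x axis) in the 3 comparisons, each with 3 libraries per group. Dotted lines mark 2-fold. *Cdkn1c* in stably expanded against pre-malignant clones, at 2.54, is the only filled point.

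Against the background of all genes, the members showed the following counts. Between de novo expanded and pre-malignant clones, 0 of 10 members and 0 of 14195 genes (0.0%) were called by limma, with 0 genes called by edgeR and 62 by DESeq2. At an unadjusted limma p-value under 0.05 stood 4 members (*Cdk4*, *Cdkn1b*, *Cdkn2d* and *Rb1*), beside 11.3% of all genes, and 4 members did not overlap (*Ccnd3*, *Cdk4*, *Cdkn2d* and *Rb1*), beside 19.1%. Between stably expanded and pre-malignant clones, 5 members were under 0.05 unadjusted, beside 25.4%, and 3 did not overlap (*Cdkn1b*, *Cdkn1c* and *Cdkn2d*), beside 30.7%, which is close to the share of all genes. Between the leukemic groups 0 members were called, beside 0.00727% of all genes, with 2 members under 0.05 unadjusted (*Cdkn1c* and *Rb1*), beside 4.83%, and 1 member (*Rb1*) without overlap, beside 9.61%. For this comparison DESeq2 and edgeR called 0 members, beside 32 and 1 of 13758 genes. The median log2 fold change of the members was 0.23, 0.13 and -0.02 in the 3 comparisons, beside 0.01, 0.00 and 0.00 over all genes tested.

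Other genes of the pathway were taken from 9 lists with 91 genes, of which 74, 73 and 74 were tested. For de novo expanded over pre-malignant, 0 were called and 11 had an unadjusted limma p-value under 0.05, beside 11.3% of all genes. For stably expanded over pre-malignant, 2 were called, both higher, beside 2.75% of all genes, and 24 had an unadjusted limma p-value under 0.05, 20 higher and 4 lower, beside 25.4%. Between the leukemic groups 0 were called and 4 had an unadjusted limma p-value under 0.05, beside 4.83%.

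Of the called genes, *Cd81*, which encodes a tetraspanin and lies near *Cdkn1c* on chromosome 7, gave 43.2, 39.4 and 37.2 CPM in pre-malignant, 73.0, 78.8 and 92.0 CPM in de novo expanded and 97.6, 92.8 and 87.8 CPM in stably expanded libraries. Each leukemic library lay above each pre-malignant one. Its log2 fold change was 1.22 ± 0.11 (limma adjusted p = 0.00108) for stably expanded and 1.04 ± 0.13 (limma adjusted p = 0.186) for de novo expanded over pre-malignant. *Igf2r*, an imprinted gene for the receptor that clears Igf2, gave 263, 297 and 160 CPM in pre-malignant, 116, 197 and 882 CPM in de novo expanded and 548, 402 and 565 CPM in stably expanded libraries. It was called at 1.11 ± 0.21 (limma adjusted p = 0.0132) for stably expanded over pre-malignant, a call lost without pre-malignant library 3, and de novo expanded library 3 was the highest of all. In the imprinted cluster of *Cdkn1c*, 8 of 12 genes were tested and *Cd81* was the only one called. For stably expanded over pre-malignant, 5 of these 8 were higher and 3 lower. The largest decrease among them was that of *Osbpl5*, named after its values were seen, at -0.92 ± 0.27 (limma adjusted p = 0.059). *Kcnq1ot1*, the antisense RNA of that cluster, named after its values were seen, was at -0.45 ± 0.14 (limma adjusted p = 0.0673), and without strand its reads cannot be told apart from those of *Kcnq1*.

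Downstream of the D-type cyclins, all 20 genes of the S phase and mitosis list were higher in both leukemic groups than in the pre-malignant one, with medians of 0.22 and 0.26 on the log2 scale, except that 2 of the 20, *Pcna* among them, were lower in de novo expanded clones under quantile normalization, centring on the median, edgeR and DESeq2, and none was called. Of all genes tested, 51.0% and 50.5% were higher. Of the 20, 3 and 8 had an unadjusted limma p-value under 0.05, beside 11.3% and 25.4% of all genes. *Rrm2*, a subunit of ribonucleotide reductase, was at 0.52 ± 0.13 (limma adjusted p = 0.0402) for stably expanded over pre-malignant. In the same comparison *Aurka*, a mitotic kinase, was at 0.39 ± 0.14 (limma adjusted p = 0.123). Of the cyclin E, cyclin A and CDK2 list, all 5 tested genes were higher in stably expanded clones. There, *Ccne2*, a cyclin that activates Cdk2, was at 0.65 ± 0.14 (limma adjusted p = 0.0187), *Cdc25a*, the phosphatase that activates Cdk2, was at 0.55 ± 0.13 (limma adjusted p = 0.0318), and *Ccna2* was at 0.41 ± 0.16 (limma adjusted p = 0.136). These were all below the fold limit.

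In the list of pocket proteins and E2F factors, 12 of 12 tested genes were higher in de novo expanded clones and 9 of 12 in the stably expanded clone, against pre-malignant clones, although *E2f1* and *Tfdp2* turned to lower in de novo expanded clones under the same 4 alternatives, and none was called. *E2f2*, an activating E2F, was at 0.53 ± 0.17 and 0.46 ± 0.15 (limma adjusted p = 0.399 and 0.0883), *Rbl2*, a relative of *Rb1*, at 0.12 ± 0.10 and 0.23 ± 0.09, and *Tfdp1*, the partner of E2F factors, at 0.19 ± 0.11 and 0.27 ± 0.12. The list on turnover of p27 and cyclins was split, and none of its genes was called. Of its 10 genes, 5 were higher and 5 lower in de novo expanded, and 4 higher and 6 lower in stably expanded over pre-malignant clones. For stably expanded over pre-malignant, *Skp1a*, a core subunit of the ubiquitin ligase that removes p27, was at 0.56 ± 0.10 (limma adjusted p = 0.0103). *Ambra1*, which targets D-type cyclins for removal, was at -0.57 ± 0.13 (limma adjusted p = 0.0257) there, and both were under 2-fold. *Skp2*, named after its values were seen, was at -0.15 ± 0.35 (limma adjusted p = 0.829) there. *Cks1b*, the cofactor of Skp2 in p27 removal, was at 0.34 ± 0.13 (limma adjusted p = 0.417) for de novo expanded over pre-malignant. For stably expanded over pre-malignant, *Cks1b* was at 0.15 ± 0.17 (limma adjusted p = 0.631). *Foxo4*, a FOXO factor of the family that activates *Cdkn1b*, was at -0.53 ± 0.18 (limma adjusted p = 0.092) for stably expanded over pre-malignant. Of the 9 genes in the list of FOXO and upstream genes, 5 were higher and 4 lower in each leukemic group than in the pre-malignant group.

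The other CDK inhibitors held 4 genes, of which 3 were tested. For stably expanded over pre-malignant, 2 were higher and 1 lower, and none was called. *Cdkn2a*, the tumor suppressor locus that encodes p16Ink4a and Arf, was low, between 0.58 and 4.04 CPM, and lay at 1.41 ± 0.43 (limma adjusted p = 0.0713) for stably expanded over pre-malignant, without overlap. *Cdkn3*, a phosphatase that acts on CDKs, was at 0.78 ± 0.31 (limma adjusted p = 0.149) there. *Cdkn1a*, named after its values were seen, was at -0.50 ± 0.27 (limma adjusted p = 0.274) there. Of the 3 genes of the CDK-activating kinase, none had an unadjusted limma p-value under 0.05 in any comparison.

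**Figure D5:**
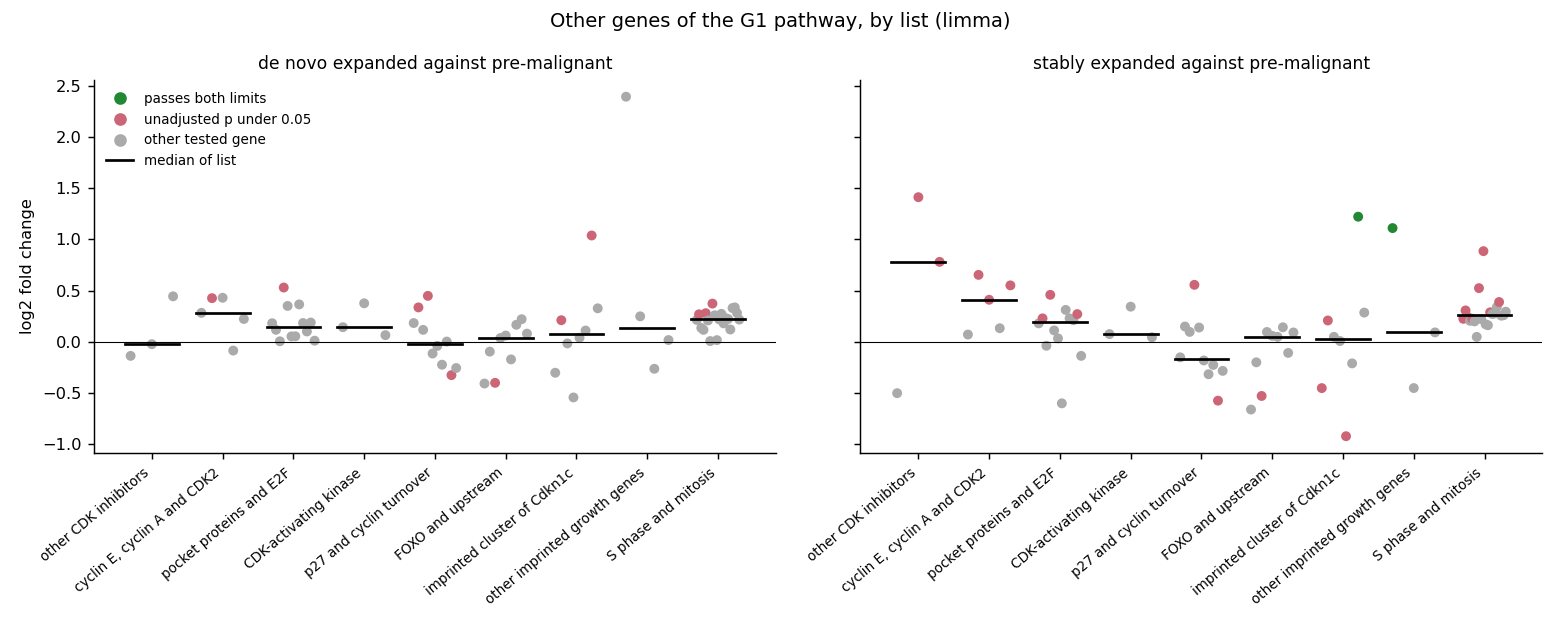
Log2 fold change (limma, y axis) of each tested gene of the 9 pathway lists (x axis), for de novo expanded (left) and stably expanded (right) against pre-malignant clones, which share the pre-malignant libraries. Black lines are list medians, and the 2 green points are *Cd81* and *Igf2r*.

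The genes whose levels over the 9 libraries were most like *Cdkn1c* were *Ets1*, *Baiap3*, *Slc13a5*, *Ptgs1* and *Gm44664*, with Pearson r of log2(CPM + 1) of 0.98, 0.98, 0.98, 0.98 and 0.97 among 13081 genes with a mean of at least 1 CPM. *Ets1*, a transcription factor gene, gave 66.5, 50.6 and 31.1 CPM in pre-malignant, 22.4, 21.4 and 116 CPM in de novo expanded and 168, 100.3 and 112 CPM in stably expanded libraries. *Slc13a5*, which encodes a citrate transporter, gave 7.36, 5.89 and 1.01 CPM, then 0.75, 0.51 and 59.8 CPM, then 47.1, 27.1 and 22.4 CPM. Like *Cdkn1c*, each of these 2 was highest in the stably expanded libraries and in de novo expanded library 3. Among the members, *Ccnd1* (r = -0.84) and *Ccnd2* (r = -0.81) were the most opposite to *Cdkn1c*, and *Rb1* (r = 0.47) and *Ccnd3* (r = 0.44) the most alike. These values describe 9 libraries that share clones and mice, and a pattern with 1 library apart from its group weighs heavily in them.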

How the data were processed

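RNA of sorted splenocytes was measured in 9 libraries. According to the methods and the submitters' processing notes, reads were trimmed with Trim Galore 0.6.4, aligned with STAR 2.6.1d to GRCm38.p6 with the GENCODE annotation and counted with featureCounts 1.6.4. The signal per library is the count that the authors divided by a DESeq2 size factor over the 6 libraries of a table, and the deposited gene length is another value per gene, in exon bases. The deposited fold changes and p-values of the authors' own test were not used.

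Whole reads were recovered from the steps of each library, with at least 99.995% of values whole to within 0.05 reads. CPM and TPM were computed from them. The limit of 3 reads for a count of 0 covers counting error only, and molecular identifiers are not given in the sources used here. Each ± is an SD over the libraries of a group or a limma standard error. Nothing states separate cultures, so p-values measure the spread between these samples. The main test was limma 3.58.1 in R 4.3.3 with a trend on log2(normalized count + 1). Genes needed an average of 10 normalized counts over the libraries compared. Tests were two-sided and p-values were adjusted by Benjamini-Hochberg for all tested genes. A fold change is on this log2 scale and understates low genes. Ratios were tested by exact permutation in Python 3.11.15 with scipy 1.17.1. The limma step was tested on simulated data.

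The members, lists and tests were chosen with earlier results of these data known. Named were all members, list genes that were called, and otherwise up to 3 genes per list with the largest change at an unadjusted p-value under 0.05, besides the 5 genes most like each called member. A gene that this rule names and a part of the genotype are not reported here. Alternatives were pseudocounts of 0.1 and 5, other filters and scalings, edgeR 4.0.16, DESeq2 1.42.0, 1 fit of all 9 libraries, no fold limit and leaving out each library.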

Additional observations from a re-analysis of the deposited data

How the results depend on the processing

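Direction and call were kept by 264 of 270 member fold changes under other settings with all libraries, and by 155 of 180 with 1 library left out. For stably expanded over pre-malignant, the main fit called 384 of 13968 genes. In 1 fit of all 9 libraries, 6 of 13960 genes were called for the same comparison, with 0 members and 1 pathway gene (*Cd81*) among them. That fit pools the spread of all groups and scales all libraries together, and the part of each in the lost calls was not tested. It also called 1 pathway gene (*Cd81*) for de novo expanded over pre-malignant, beside 5 of 13960 genes, as did DESeq2, beside 62 of 14195. For stably expanded over pre-malignant, 2 members were called with no filter on low values (*Ccnd1* and *Cdkn1c*), beside 525 of 40665 genes. With no fold limit, 2 members (*Cdkn1b* and *Cdkn1c*) and 8 pathway genes passed, beside 7.95% of all genes. *Ccnd1* in de novo expanded over pre-malignant was at 1.42 with edgeR and at 1.42 with DESeq2. Under quantile normalization *Cdk4* was at -0.0042 for stably expanded over pre-malignant and *Ccnd3* at -0.0028 between the leukemic groups. With no filter on low values the median log2 fold change of all genes was -0.18 for de novo and -0.31 for stably expanded over pre-malignant.

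With 1 library left out, members called ranged from 0 to 2 for de novo expanded over pre-malignant (2 without de novo expanded library 3), from 1 to 3 for stably expanded over pre-malignant (3 without stably expanded library 2) and from 0 to 2 between the leukemic groups (2 without de novo expanded library 3). Pathway genes called ranged from 1 to 3 for stably expanded over pre-malignant (1 without pre-malignant library 3) and from 0 to 2 between the leukemic groups. For de novo expanded over pre-malignant, log2 fold changes ranged from -0.85 to 0.85 for *Cdkn1c*, from -1.39 to 2.06 for *Ccnd1* and from -0.85 to 1.74 for *Ccnd2*, with their lowest or highest value without library 3. For stably expanded over pre-malignant they ranged from -0.0087 to 0.11 for *Cdk4* and from -0.12 to 0.06 for *Rb1*. Between the leukemic groups they ranged from -0.18 to 0.13 for *Cdkn1b*, from -0.18 to 0.11 for *Cdkn2c*, from -0.34 to 0.057 for *Cdkn2d*, from -0.095 to 0.16 for *Ccnd3* and from -0.096 to 0.084 for *Cdk6*. Differences of log2 ratios for de novo expanded over pre-malignant ranged from -1.11 to 1.58 for *Ccnd2* over *Ccnd3*, from -0.075 to 0.17 for *Cdk4* over *Cdk6* and from -0.56 to 1.44 for *Cdkn1c* over *Cdkn1b*, and between the leukemic groups from -0.22 to 0.015 for *Cdkn2d* over *Cdkn2c*. The cause of these changes was not tested.

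No paired analysis was possible because the columns carry no replicate number that the labels give.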
